A study of Mus musculus with 24 samples.

Results

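Integrins are cell surface receptors built from an alpha chain and a beta chain, and the values below follow 10 integrin genes through demyelination and remyelination in microglia with and without Cre recombinase against Dicer1. The genes are Itgam, Itgax, Itgal and Itgb2 of the beta2 family, Itga4, Itga6, Itga9 and Itgb1 of the beta1 family, and Itgav with Itgb5. They were taken from a given list of symbols, not by a filter on measured values, but the list was chosen with earlier results of these data known. The genes were matched by symbol to the table of 49315 gene identifiers. All 10 were found, and all 10 had enough counts to be tested among 17579 genes.

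The study asked how losing Dicer1, the ribonuclease that cuts miRNA precursors, affects gene expression of adult mouse brain microglia. The animals carried tamoxifen-inducible creERT2 driven by Cx3cr1 (Cre+) or lacked it (Cre-), and cells were flow-sorted as CD45 intermediate and CD11b positive. RNA from 3 Cre+ and 3 Cre- samples was sequenced in each of 4 states, 24 libraries in all. The labels call the animals Dicer1 knockouts but do not describe the Dicer1 allele. Naive animals received tamoxifen only. Demyelination animals received tamoxifen at 4 to 5 weeks, without a statement of whether this is age, and ate cuprizone, a copper chelator that strips myelin, for 6 weeks. Remyelination animals ate cuprizone for 6 weeks and then normal diet for 6 weeks. They had tamoxifen either at the start, at 4 to 5 weeks, or at the peak, in week 5 of cuprizone. Cre- animals of every state thus received tamoxifen as well. Cx3cr1 is active in microglia and also in border macrophages and some blood monocytes, so Cre is not limited to microglia. The labels number no animals. The study's text calls the 3 samples of a group biological replicates. The p-values set a difference against the spread between replicates within groups, pooled over all 24 libraries.

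An integrin is named after its pair of chains. The beta2 chain pairs with alpha M, alpha X or alpha L on leukocytes and binds complement fragments and ICAM adhesion molecules. The beta1 and alpha v families mainly bind extracellular matrix: laminins, fibronectin, tenascin, vitronectin and osteopontin. In the brain, alpha M beta2 marks microglia and supports the uptake of complement-tagged material, alpha X appears on microglia around damaged or developing myelin, and alpha 4 beta1 lets blood leukocytes attach to vessels before they enter the tissue.

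Levels are given as TMM-scaled CPM (a gene's counts relative to the library's scaled total), for replicates 1, 2 and 3 in that order, and n is 3 libraries per group throughout. Differences are log2 fold changes ± SE from edgeR's quasi-likelihood test fitted to all 24 libraries, with Benjamini-Hochberg adjusted p over the 17579 genes. A gene is called when the adjusted p is under 0.05. Totals per library were 19.48 to 44.53 M counts in naive, 21.87 to 32.71 M in demyelination, 8.87 to 12.56 M in start-tamoxifen and 8.94 to 12.09 M in peak-tamoxifen remyelination, so comparisons of remyelination with the other states also set shallower libraries beside deeper ones. Cx3cr1 stood at 41.45% to 59.27% of the Cre- mean of its state in 9 Cre+ libraries, and at 1.607% to 2.183% in the other 3, which are naive Cre+ replicate 1 and demyelination Cre+ replicates 1 and 3. Some of the results that use these 3 libraries are given with and without them, and the others only with them. For those others the text does not say whether they hold without these libraries. Dicer1, counted over the whole gene, stood at 21.81 to 24.31 CPM in naive Cre+ and 11.1 to 18.55 CPM in naive Cre- libraries, and at 11.62 to 17.49 CPM in demyelination Cre+ and 15.18 to 23.07 CPM in demyelination Cre- libraries. It stood at 32.41 to 35.21 CPM in start-tamoxifen Cre+ and 33.86 to 39.11 CPM in start-tamoxifen Cre-, and at 30.45 to 32.44 CPM in peak-tamoxifen Cre+ and 30.62 to 34.08 CPM in peak-tamoxifen Cre- libraries. It was thus higher in Cre+ in naive libraries, the groups overlapped in the other 3 states, and such counts do not isolate a deleted exon. The 10 microglial markers summed to 66680 to 67270 CPM in naive Cre+ and 75850 to 80800 CPM in naive Cre- libraries, and to 41560 to 44190 CPM in demyelination Cre+ and 44590 to 49750 CPM in demyelination Cre- libraries. The sums were lower in Cre+ without overlap in both states, and none of the 10 was at 0. Cx3cr1, whose locus drives Cre, is 1 of the 10. It had 227.1, 4432 and 4571 CPM in naive Cre+ and 9273, 9692 and 12250 CPM in naive Cre- libraries. In demyelination it had 104.3, 2312 and 89.62 CPM in Cre+ and 5277, 5318 and 6139 CPM in Cre- libraries. The sums thus cannot show whether the other markers differ. Of the 10, 0 were called higher and 2 lower in naive Cre+, against 14.7% and 13.7% of all genes. In demyelination Cre+ 1 was higher and 0 lower, against 5.69% and 3.48%. Fcrls had 1362, 2572 and 2281 CPM in naive Cre+ and 4673, 5310 and 4909 CPM in naive Cre- libraries. Olfml3 had 3639, 2626 and 3340 CPM in demyelination Cre+ and 1984, 2017 and 2301 CPM in demyelination Cre- libraries. The median log2 difference of the 10 between genotypes was -0.26 in naive and 0.03 in demyelination libraries. In remyelination the sums were 37250 to 42580 CPM in start-tamoxifen Cre+ and 40900 to 46050 CPM in start-tamoxifen Cre-, and 44850 to 45800 CPM in peak-tamoxifen Cre+ and 44130 to 55360 CPM in peak-tamoxifen Cre- libraries. The part of this difference between states and genotypes in the integrin results was not tested. These are bulk samples, in which fewer cells of a type and less RNA per cell cannot be told apart.

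**Figure D1:**
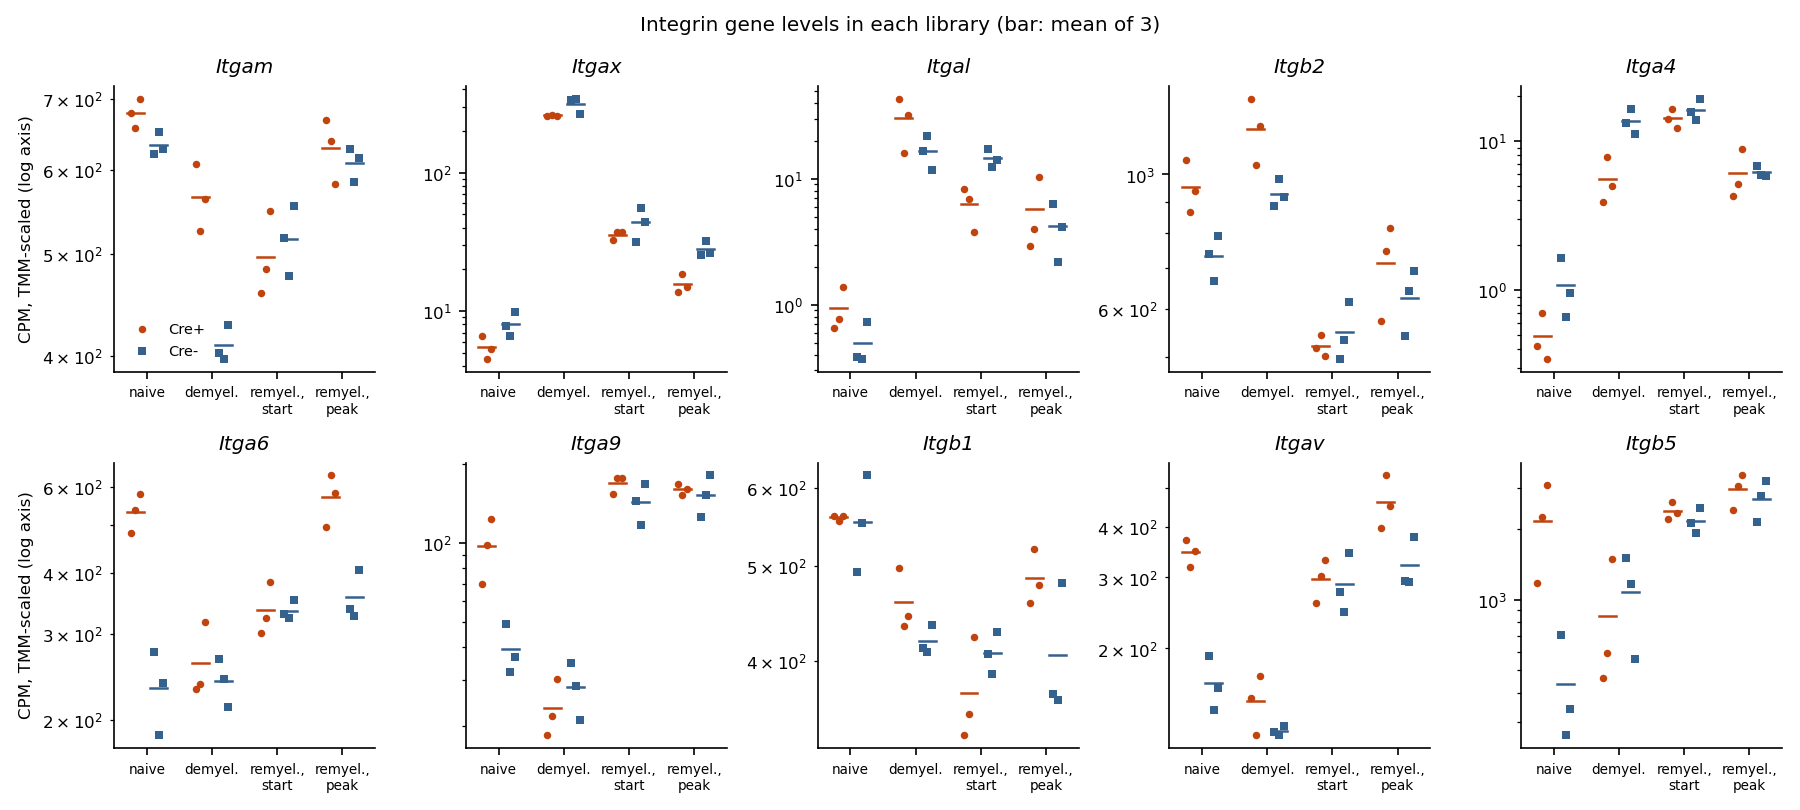
TMM-scaled CPM of the 10 integrin genes in every library (log axes, which differ between panels), by state, with Cre+ libraries as circles left of Cre- libraries as squares and horizontal bars at the mean of 3. Itgax lies between 257.4 and 340.4 CPM in all 6 demyelination libraries and between 4.519 and 9.799 CPM in all 6 naive libraries, while Itgb5 spreads widely within the naive and demyelination groups.

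Per kb of exon, Itgb5 was the most abundant of the 10 in naive Cre+ microglia, by mean, at 612.8 ± 270 CPM per kb (SD), with Itgb2 at 312.9 ± 31.4. In naive Cre+ replicate 1 Itgb5 was below Itgb2, at 333.1 and 346.5 CPM per kb. In naive Cre- microglia the order began with Itgb2 at 240.3 ± 20.5 CPM per kb. Itgb1, Itgam and Itgb5 followed at 135.9 ± 15.4, 126.1 ± 3.2 and 123.2 ± 66.7 CPM per kb and did not differ beyond their spread. Itga6 at 25.77 ± 4.95, Itgav at 15.26 ± 2.41 and Itga9 at 5.114 ± 1.14 CPM per kb formed a middle range, and Itgax stood at 1.681 ± 0.334. Itga4 and Itgal were near the lower end of detection, at 0.07788 ± 0.0361 and 0.07516 ± 0.0306 CPM per kb, and did not differ beyond their spread. Over the 24 libraries the highest level was 116 times the lowest for Itgal, 75.3 times for Itgax and 55 times for Itga4, but 1.84 times for Itgb1 and 1.76 times for Itgam.

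Itgax, which encodes alpha X (CD11c), had the largest log2 change of the 10 between demyelination and naive libraries. In naive libraries it had 6.599, 4.519 and 5.346 CPM in Cre+ and 7.795, 6.625 and 9.799 CPM in Cre-. The demyelination values were 258.4, 263 and 257.4 CPM in Cre+ and 334.4, 340.4 and 266.8 CPM in Cre-. Every demyelination library was thus far above every naive library. The rise was 5.58 ± 0.2 on the log2 scale in Cre+ (47.9-fold, edgeR adjusted p = 2.92e-16) and 5.28 ± 0.19 in Cre- (38.9-fold, edgeR adjusted p = 2.34e-15). With tamoxifen at the start, Itgax in remyelination was 32.76, 37.2 and 36.97 CPM in Cre+ and 31.8, 55.74 and 44.12 CPM in Cre-. These values lie between the naive and the demyelination levels, and the fall against demyelination was -2.86 ± 0.17 in Cre+ (edgeR adjusted p = 1.31e-12) and -2.84 ± 0.17 in Cre- (edgeR adjusted p = 9.57e-12). Against naive libraries Itgax was still higher, by 2.72 ± 0.18 in Cre+ and 2.45 ± 0.18 in Cre- (edgeR adjusted p = 8.65e-11 and 3.82e-10).

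Itgax was lower in Cre+ than in Cre- microglia in 2 of the 4 states. In peak-tamoxifen remyelination it had 13.69, 18.41 and 14.95 CPM in Cre+ and 25.56, 32.17 and 26.34 CPM in Cre- libraries. The groups do not overlap, and the difference was -0.84 ± 0.18 (edgeR adjusted p = 0.00358), past the threshold under every alternative run. In naive microglia the groups did not overlap either, and the difference was -0.57 ± 0.19 (edgeR adjusted p = 0.0235). The naive call was lost in a fit on the 6 naive libraries alone (adjusted p = 0.0707) and without naive Cre- replicate 3 (-0.40, adjusted p = 0.145), Cre+ replicate 2 (-0.44, adjusted p = 0.132) or Cre+ replicate 3 (-0.56, adjusted p = 0.0653), all by edgeR. In demyelination each Cre+ library was below each Cre- library, but the difference of -0.27 ± 0.16 did not pass (edgeR adjusted p = 0.314). The start-tamoxifen groups overlapped, at -0.30 ± 0.17 (edgeR adjusted p = 0.6).

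Itgam encodes alpha M (CD11b), the surface protein on which the cells were sorted, and it moved little and in the other direction. It had 679.8, 657.2 and 700.3 CPM in naive Cre+ and 621.1, 651.5 and 628.2 CPM in naive Cre- libraries. In demyelination it had 608.4, 525.1 and 563.1 CPM in Cre+ and 402.9, 397.7 and 428.5 CPM in Cre- libraries. All 3 demyelination Cre+ libraries were above all 3 demyelination Cre- libraries. That genotype difference was 0.47 ± 0.09 (edgeR adjusted p = 0.00166). The fall against naive was -0.63 ± 0.09 in Cre- (edgeR adjusted p = 2.04e-06). In Cre+ it was -0.26 ± 0.09 (edgeR adjusted p = 0.0123), a call lost with no low-count filter (adjusted p = 0.0976), without demyelination Cre+ replicate 2 (adjusted p = 0.0782) and without the 3 libraries with low Cx3cr1 (adjusted p = 0.0743). Without those 3 libraries the genotype difference in demyelination was 0.40 (edgeR adjusted p = 0.26), with 1 demyelination Cre+ library left whose spread is assumed to be that of the other groups.

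In remyelination Itgam no longer differed by genotype past the threshold. In start-tamoxifen remyelination it had 458.6, 483.9 and 548.3 CPM in Cre+ and 517.3, 476.8 and 554.4 CPM in Cre- libraries (-0.05 ± 0.09, edgeR adjusted p = 0.909). In peak-tamoxifen remyelination it had 669.3, 638.5 and 582.2 CPM in Cre+ and 627.5, 584.2 and 615.4 CPM in Cre- libraries (0.05 ± 0.09, edgeR adjusted p = 0.777). Groups overlapped in both. Itgam shares 3450 exon bases with Gm49368 on the same strand, which stood at 0.7852 to 2.646 CPM, and reads from the shared bases may have gone to either gene or to none.

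Itgam (ENSMUSG00000030786, chr7:128062640-128118491, plus strand) and Itgax (ENSMUSG00000030789, chr7:128129547-128150657, plus strand) are neighbours on GRCm38. Their promoters, from RefSeq's GRCm38.p6 annotation, are shown because these neighbouring genes moved in opposite directions in demyelination. Each run holds 250 bases before and 50 bases from the annotated start, Itgam at chr7:128062390-128062689 and Itgax at chr7:128129300-128129599, both on the plus strand. Capitals mark GAGGAA or its reverse complement TTCCTC, a core of sites for the myeloid factor PU.1, in Itgam, and TGACTCA or its reverse complement TGAGTCA, the AP-1 element, in Itgax.
Itgam promoter: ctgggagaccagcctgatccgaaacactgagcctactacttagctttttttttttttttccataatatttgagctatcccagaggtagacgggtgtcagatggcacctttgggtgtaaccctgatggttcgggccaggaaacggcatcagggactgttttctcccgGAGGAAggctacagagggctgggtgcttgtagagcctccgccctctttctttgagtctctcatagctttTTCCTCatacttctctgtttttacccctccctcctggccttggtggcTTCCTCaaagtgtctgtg
Itgax promoter: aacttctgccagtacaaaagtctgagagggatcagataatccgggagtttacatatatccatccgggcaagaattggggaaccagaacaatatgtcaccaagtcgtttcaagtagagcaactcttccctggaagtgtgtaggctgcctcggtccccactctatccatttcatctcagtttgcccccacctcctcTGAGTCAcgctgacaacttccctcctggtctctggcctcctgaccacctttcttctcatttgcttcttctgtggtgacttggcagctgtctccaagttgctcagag
Itgam held GAGGAA or TTCCTC at 3 places, -84 to -79, -15 to -10 and 33 to 38 relative to the start, and these letters were not in the Itgax window. Itgax held TGAGTCA at -56 to -50, and neither form was in the Itgam window. Of 32851 promoters of this length, 9289 (28.3%) held GAGGAA or TTCCTC and 1709 (5.2%) held TGACTCA or TGAGTCA, on either strand. RefSeq promoters matched 7 of the 10 genes, all but Itgal, Itgb2 and Itga6. Among the other 5, Itgb1 and Itgav also held the first motif, Itga9 the second, and a match is a string of letters, not a measured site. The Itga9 window, chr9:118711442-118711741, lies at a start inside the gene, whose first annotated base in GENCODE is 118606690.

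The share of each alpha chain that can pair with beta2 was computed per library from CPM per kb. In demyelination Itgax made up 29.7, 33.9 and 31.4% of the sum of Itgam, Itgax and Itgal in Cre+ libraries and 45.7, 46.2 and 38.9% in Cre- libraries. The share was lower in every Cre+ library than in any Cre- library. In naive libraries Itgax made up 1, 0.713 and 0.791% in Cre+ and 1.29, 1.05 and 1.6% in Cre-, and Itgam at least 98.3% in all 6. Itgax took 6.56 to 7.37% in Cre+ and 5.9 to 10.7% in Cre- libraries in start-tamoxifen remyelination, where groups overlapped, and 2.09 to 2.91% in Cre+ and 4.06 to 5.43% in Cre- libraries in peak-tamoxifen remyelination, where they did not. Itgb2 was 1.35 to 2.53 times the sum of its 3 alpha partners per kb over the 24 libraries. These are shares of RNA and not of receptor on the cell surface, and they carry no test of their own. Itgam shares 3450 of its 5024 exon bases with Gm49368. If reads from those bases went to neither gene, Itgam per kb is too low. The Itgax shares and the ratio of Itgb2 to its partners would then be too high.

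**Figure D2:**
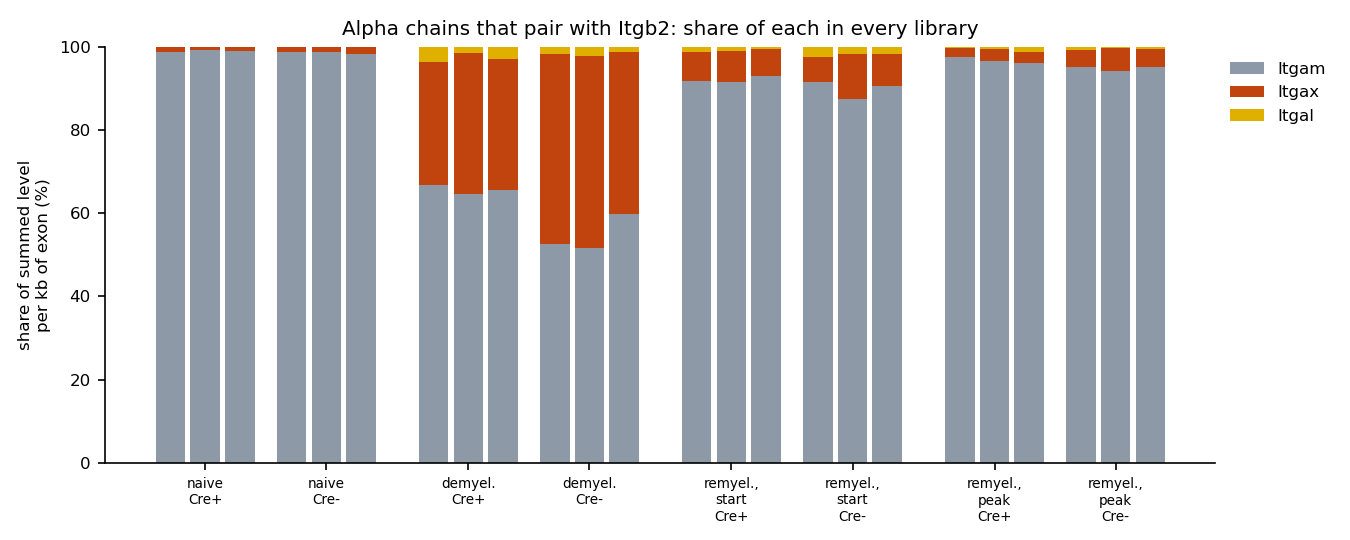
Share of Itgam, Itgax and Itgal in their summed level per kb of exon, in percent, with 1 bar per library and Cre+ bars left of Cre- bars in each state. The Itgax share is at most 1.6% in naive libraries, 29.7 to 33.9% in demyelination Cre+ libraries and 38.9 to 46.2% in demyelination Cre- libraries. All shares depend on how reads from the exon bases that Itgam shares with Gm49368 were counted.

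Itgal encodes alpha L, which with beta2 forms the ICAM receptor LFA of lymphocytes and other leukocytes. It had 0.6552, 0.7732 and 1.385 CPM in naive Cre+ and 0.3842, 0.371 and 0.7258 CPM in naive Cre- libraries. The demyelination values were 42.97, 16.04 and 32.02 CPM in Cre+ and 16.5, 21.71 and 11.73 CPM in Cre- libraries. Every demyelination library was above every naive library, by 5.01 ± 0.53 in Cre+ (edgeR adjusted p = 2.49e-07) and 5.04 ± 0.57 in Cre- (edgeR adjusted p = 1.34e-06). The 2 highest values belong to the demyelination Cre+ libraries with low Cx3cr1. In start-tamoxifen remyelination Itgal had 8.248, 6.889 and 3.761 CPM in Cre+ and 17.37, 12.36 and 14.01 CPM in Cre- libraries. It fell against demyelination in Cre+ (-2.26 ± 0.45, edgeR adjusted p = 0.000282), which did not pass without the 3 libraries with low Cx3cr1 (-1.34, adjusted p = 0.0603). In Cre- it stood at -0.19 ± 0.43 (edgeR adjusted p = 0.729). In peak-tamoxifen remyelination it had 2.92, 3.957 and 10.34 CPM in Cre+ and 6.343, 2.187 and 4.116 CPM in Cre- libraries.

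No genotype difference of Itgal passed in any state. The start-tamoxifen groups did not overlap, at -1.2 ± 0.46 (unadjusted p = 0.0177, edgeR adjusted p = 0.404). The difference was 0.89 ± 0.67 in naive, 0.87 ± 0.42 in demyelination and 0.47 ± 0.51 in peak-tamoxifen libraries (edgeR adjusted p = 0.35, 0.225 and 0.623), with overlapping groups in all 3. Change of this effect between demyelination and start-tamoxifen remyelination was -2.07 ± 0.62 and did not pass either (edgeR adjusted p = 0.0715).

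Itgb2, the beta chain (CD18) shared by all 3 of these alpha chains, had 1057, 867.4 and 939.9 CPM in naive Cre+ and 738.5, 668.4 and 793 CPM in naive Cre- libraries. The Cre+ libraries were all higher, by 0.38 ± 0.12 (edgeR adjusted p = 0.0204). The call was lost without naive Cre- replicate 2 (adjusted p = 0.101), without Cre+ replicate 1 (adjusted p = 0.113) and without the libraries with low Cx3cr1 (0.27, adjusted p = 0.128). In demyelination it had 1332, 1038 and 1201 CPM in Cre+ and 888.4, 983 and 919.2 CPM in Cre- libraries, which do not overlap, at 0.36 ± 0.12 (edgeR adjusted p = 0.0672). In start-tamoxifen remyelination it had 516.5, 543.4 and 501.5 CPM in Cre+ and 496.6, 534.1 and 615.9 CPM in Cre- libraries. These 6 were below every demyelination library, by -1.19 ± 0.12 in Cre+ (edgeR adjusted p = 4.73e-09) and -0.76 ± 0.12 in Cre- (edgeR adjusted p = 9.15e-06). The rise in demyelination over naive was small, 0.32 ± 0.12 in Cre+ and 0.34 ± 0.12 in Cre- (edgeR adjusted p = 0.0309 and 0.0292), and was lost with a correction for GC content and length (0.16 and 0.23, adjusted p = 0.282 and 0.129). It was also lost without naive Cre+ replicate 2 or 3, demyelination Cre+ replicate 1 or 3, naive Cre- replicate 1 or 2, or any 1 demyelination Cre- library, and in Cre+ without the libraries with low Cx3cr1 (0.26, adjusted p = 0.255). In peak-tamoxifen remyelination it had 574.3, 748.6 and 816.8 CPM in Cre+ and 541.5, 641.8 and 694.3 CPM in Cre- libraries, which overlap.

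Itga4 encodes alpha 4, the chain of the VCAM and fibronectin receptor by which monocytes and lymphocytes leave the blood, and resting microglia hold little of it. It had 0.4212, 0.7007 and 0.3461 CPM in naive Cre+ and 1.647, 0.6625 and 0.9568 CPM in naive Cre- libraries, and its lowest count in any library was 9. The demyelination values were 3.913, 7.735 and 4.967 CPM in Cre+ and 13.21, 16.39 and 11.02 CPM in Cre- libraries. Every demyelination Cre+ library was below every demyelination Cre- library, and all 6 were above all naive libraries. Itga4 rose in demyelination by 3.41 ± 0.34 in Cre+ (10.6-fold, edgeR adjusted p = 5.38e-09) and by 3.71 ± 0.31 in Cre- (13.1-fold, edgeR adjusted p = 9.35e-10). The genotype difference in demyelination was -1.29 ± 0.27 (edgeR adjusted p = 0.00387). The highest Cre+ value, 7.735 CPM, belongs to the demyelination Cre+ library whose Cx3cr1 was not low. Without the 3 libraries with low Cx3cr1 the difference was -0.76 (edgeR adjusted p = 0.648). In naive libraries it was -0.99 ± 0.38 and just missed the threshold (edgeR adjusted p = 0.0532), with overlapping groups. The naive difference passed with RLE scaling (adjusted p = 0.0431), without the low-count filter (adjusted p = 0.00845), with the GC content and length correction (adjusted p = 0.0358) and with DESeq2 (adjusted p = 0.0185), and without naive Cre- replicate 1 it was -0.64 (edgeR adjusted p = 0.247).

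By group mean Itga4 was highest in start-tamoxifen remyelination, at 14.16 ± 2.1 CPM in Cre+ and 16.17 ± 2.63 CPM in Cre- libraries (SD). It had 13.98, 16.34 and 12.16 CPM in Cre+ and 15.6, 13.87 and 19.04 CPM in Cre- libraries with tamoxifen at the start, a genotype difference of -0.19 ± 0.26 (edgeR adjusted p = 0.89). All 3 Cre+ values were above every demyelination Cre+ value, a rise of 1.36 ± 0.27 (edgeR adjusted p = 0.000117), which was 0.87 without the 3 libraries with low Cx3cr1 (adjusted p = 0.0502). In Cre- libraries remyelination and demyelination overlapped, at 0.26 ± 0.26 (edgeR adjusted p = 0.419). With tamoxifen at the peak Itga4 had 4.289, 5.161 and 8.745 CPM in Cre+ and 6.722, 5.927 and 5.763 CPM in Cre- libraries. The difference there was -0.02 ± 0.29 (edgeR adjusted p = 0.98), and it was -0.37 without peak-tamoxifen Cre+ replicate 3. Itga4 shares 1124 exon bases with Cerkl on the opposite strand, and without a known strand setting reads from the shared bases cannot be told apart.

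Markers of other myeloid cells are given beside Itga4. The 11 monocyte markers summed to 256.6, 239.3 and 214.5 CPM in demyelination Cre+ and 134.3, 261.6 and 270.7 CPM in demyelination Cre- libraries, and to 25.32 to 85.34 CPM in naive Cre+ and 38.92 to 90.63 CPM in naive Cre- libraries. Of these 11, 6 rose and 0 fell in demyelination in Cre+, 10 rose and 0 fell in Cre-, and between genotypes in demyelination 0 were higher and 3 lower in Cre+. The shares of all tested genes that rose were 26.3% in Cre+ and 19.7% in Cre-, and between genotypes 5.69% were higher and 3.48% lower. Single members differed in direction. Ccr2, the chemokine receptor of blood monocytes, had 24.33, 13.91 and 10.42 CPM in demyelination Cre+ and 31.35, 57.03 and 56.09 CPM in demyelination Cre- libraries, lower in Cre+ without overlap. Chil3, which makes up the larger part of the Cre+ sums, had 161.9, 156.7 and 141.4 CPM in demyelination Cre+ and 27.13, 69.27 and 91.23 CPM in demyelination Cre- libraries, all Cre+ values being higher but the difference not past the threshold (1.29 ± 0.88, edgeR adjusted p = 0.423). The 10 border macrophage markers summed to 281.4, 311.3 and 278.3 CPM in demyelination Cre+ and 343.7, 375.3 and 445.8 CPM in demyelination Cre- libraries, and 0 were higher and 2 lower in Cre+, against the same shares of all genes. They reached 891.4 to 1320 CPM in start-tamoxifen Cre+ and 890.7 to 1104 CPM in start-tamoxifen Cre- libraries, and stood at 771.9 to 882.1 CPM in peak-tamoxifen Cre+ and 794 to 920.9 CPM in peak-tamoxifen Cre- libraries. The sum of the 10 neutrophil markers went the other way in demyelination, with 1690, 1515 and 1342 CPM in Cre+ and 221.2, 600.8 and 901.2 CPM in Cre- libraries. A few high genes can set such a sum, and how many of these markers were called is not given here. No gene of these 3 lists was at 0 in any demyelination library. In peak-tamoxifen Cre+ replicate 3, where Itga4 and Itgal were highest of that group, monocyte markers summed to 736.9 CPM and neutrophil markers to 5200 CPM, against at most 104.5 and 458.8 CPM in the other 2 Cre+ libraries. Chil3 alone gave 553.4 of the 736.9 CPM, while Ccr2 stood at 28.96 CPM there, against 26.74 and 32.43 CPM in the other 2, and Ms4a4c at 3.291 CPM, against 5.475 and 4.645 CPM. The part of these cells in the Itga4 and Itgal levels was not tested.

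Alpha 4 also pairs with beta7, the product of Itgb7. In naive libraries Itgb7 had 1.264, 1.691 and 2.423 CPM in Cre+ and 0.7136, 0.689 and 0.8908 CPM in Cre-, higher in every Cre+ library. Genotypes overlapped in both remyelination states, where peak-tamoxifen Cre+ replicate 3 had 7.899 CPM, against 1.004 and 1.806 CPM in replicates 1 and 2. In demyelination Itgb7 had 1.434, 0.7547 and 1.134 CPM in Cre+ and 3.124, 8.195 and 6.763 CPM in Cre- libraries. The groups did not overlap, and Itgb7 was lower in Cre+ by -2.43 ± 0.55 (edgeR adjusted p = 0.00883). It was -2.94 without the 3 libraries with low Cx3cr1 and no longer called (adjusted p = 0.393).

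**Figure D3:**
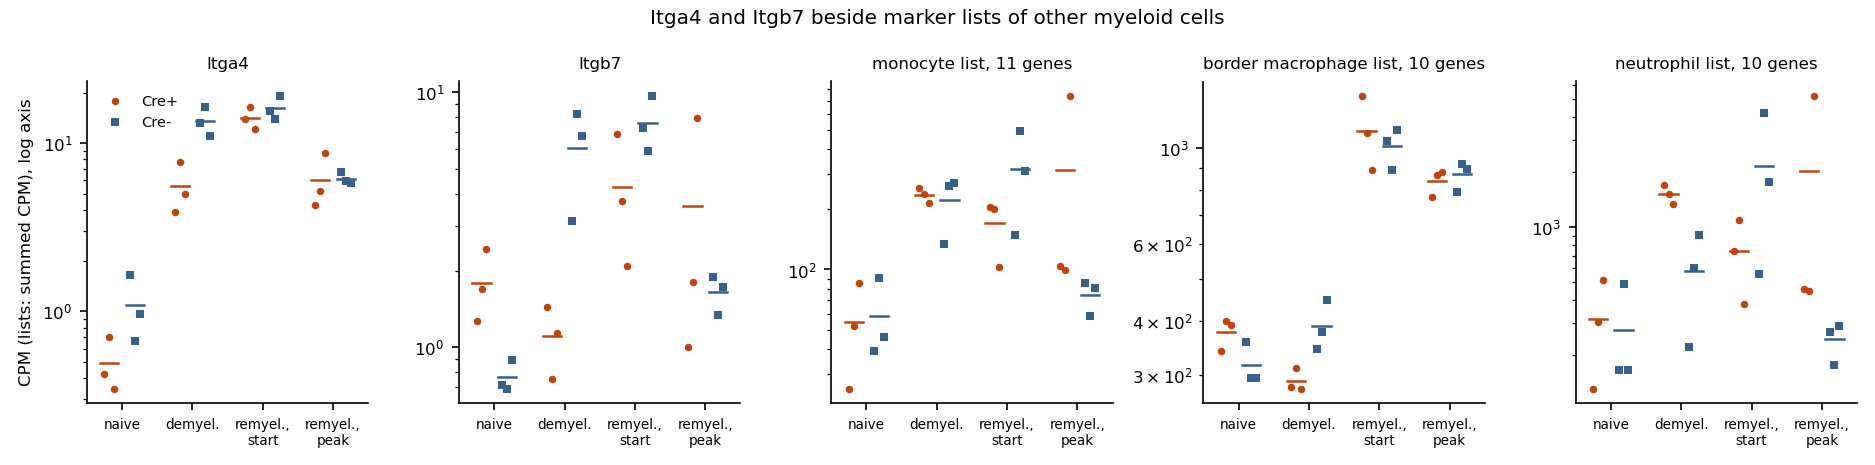
Itga4, Itgb7 and the summed CPM of the monocyte, border macrophage and neutrophil marker lists in every library (log axes), by state, with Cre+ circles left of Cre- squares and bars at the mean of 3. Itga4 and Itgb7 are lower in all demyelination Cre+ than in all demyelination Cre- libraries, while the neutrophil sum is higher in all demyelination Cre+ libraries.

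Itga6 and Itga9 encode alpha chains that pair with beta1. Alpha 6 binds laminin, and alpha 9 binds tenascin, osteopontin and VCAM. In naive microglia Itga6 had 481.3, 537.4 and 578.2 CPM in Cre+ and 274.7, 185.7 and 237.5 CPM in Cre- libraries. Each Cre+ library was above each Cre- library, by 1.2 ± 0.14 (2.29-fold, edgeR adjusted p = 1.83e-06). In demyelination it had 231.3, 236.6 and 316.3 CPM in Cre+ and 266.3, 242.7 and 211.9 CPM in Cre- libraries, which overlap (0.12 ± 0.14, edgeR adjusted p = 0.668). Against naive, Itga6 fell in Cre+ by -1.03 ± 0.14 (edgeR adjusted p = 9.28e-07), and the difference stood at 0.05 ± 0.14 in Cre- (edgeR adjusted p = 0.834). In start-tamoxifen remyelination Itga6 had 300.8, 323.4 and 383 CPM in Cre+ and 328.6, 322.2 and 351.6 CPM in Cre- libraries, with overlap. In peak-tamoxifen remyelination it had 495.6, 632.2 and 581.9 CPM in Cre+ and 336.7, 326.7 and 404.9 CPM in Cre- libraries. These did not overlap, and Itga6 was higher in Cre+ by 0.68 ± 0.14 (edgeR adjusted p = 0.00222).

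Itga6 in start-tamoxifen remyelination was 0.36 ± 0.14 above demyelination in Cre+ and 0.48 ± 0.14 in Cre- (edgeR adjusted p = 0.0268 and 0.00564). With a correction for GC content and length the differences were -0.07 and 0.11 (adjusted p = 0.637 and 0.472), so no direction is drawn from them. The Cre+ call was also lost without start-tamoxifen Cre+ replicate 3 or demyelination Cre+ replicate 1 or 2.

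Itga9 had 69.54, 98.71 and 123.8 CPM in naive Cre+ and 49.13, 32.12 and 36.75 CPM in naive Cre- libraries, a rise of 1.31 ± 0.23 without overlap (edgeR adjusted p = 0.000269). The demyelination values were 18.36, 21.79 and 30.23 CPM in Cre+ and 34.86, 28.35 and 21.09 CPM in Cre- libraries. The genotypes overlapped there (-0.26 ± 0.23, edgeR adjusted p = 0.557), and all Cre+ libraries were below all naive Cre+ libraries, by -2.06 ± 0.23 (edgeR adjusted p = 4.05e-07). In Cre- the change was -0.48 ± 0.23 (edgeR adjusted p = 0.113). Itga9 was high in both remyelination states. It had 154.3, 177.5 and 178.2 CPM in Cre+ and 144.3, 117.5 and 168.7 CPM in Cre- libraries with tamoxifen at the start, and 168.8, 153.3 and 160.7 CPM in Cre+ and 126.2, 152.3 and 181.4 CPM in Cre- libraries with tamoxifen at the peak. No demyelination library reached these values, and the rise of start-tamoxifen remyelination over demyelination was 2.86 ± 0.24 in Cre+ (7.27-fold, edgeR adjusted p = 3.57e-09) and 2.35 ± 0.24 in Cre- (5.11-fold, edgeR adjusted p = 8.16e-08).

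Itgb1, the common beta1 chain, was not called between genotypes in any state. It had 562.6, 555.8 and 562.4 CPM in naive Cre+ and 492.8, 552.9 and 618.1 CPM in naive Cre- libraries (0.01 ± 0.11, edgeR adjusted p = 0.943). In demyelination it had 497.6, 434.7 and 444.9 CPM in Cre+ and 412.8, 408.3 and 435.4 CPM in Cre- libraries. All of these but 1 were below every naive library, the exception being demyelination Cre+ replicate 1. The fall was -0.29 ± 0.11 in Cre+ (edgeR adjusted p = 0.0257) and -0.41 ± 0.11 in Cre- (edgeR adjusted p = 0.00381), and the Cre+ call was lost with RLE scaling (adjusted p = 0.0722), without the low-count filter (adjusted p = 0.0599) and with DESeq2 (adjusted p = 0.0632). It was also lost without naive Cre+ replicate 1 or 3, demyelination Cre+ replicate 2 or 3, or the libraries with low Cx3cr1 (-0.31, adjusted p = 0.144). It had 336, 353 and 423.4 CPM in start-tamoxifen Cre+ and 406.5, 388.2 and 427.8 CPM in start-tamoxifen Cre- libraries. The difference from demyelination was -0.31 ± 0.11 in Cre+ (edgeR adjusted p = 0.0143) and -0.04 ± 0.11 in Cre- (edgeR adjusted p = 0.772). The Cre+ call was lost with the GC content and length correction (-0.23, adjusted p = 0.0583), without start-tamoxifen Cre+ replicate 1 or 2, without demyelination Cre+ replicate 1 (-0.22, adjusted p = 0.112), and without the libraries with low Cx3cr1 (-0.23, adjusted p = 0.204). In peak-tamoxifen remyelination it had 458.6, 520.8 and 478.4 CPM in Cre+ and 370.1, 365.3 and 480.5 CPM in Cre- libraries, which overlap (0.26 ± 0.11, edgeR adjusted p = 0.117).

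Itgav encodes alpha v, which pairs with several beta chains and binds vitronectin, MFGE8 and the latent form of TGF-beta. It had 371.5, 317.7 and 348.9 CPM in naive Cre+ and 191.8, 140.8 and 159.3 CPM in naive Cre- libraries. All Cre+ libraries were above all Cre- libraries, by 1.08 ± 0.15 (2.11-fold, edgeR adjusted p = 8.53e-06). The demyelination values were 150.7, 121.8 and 170.8 CPM in Cre+ and 124, 122.3 and 128.6 CPM in Cre- libraries, with overlap (0.24 ± 0.15, edgeR adjusted p = 0.343). It fell against naive by -1.23 ± 0.15 in Cre+ (edgeR adjusted p = 1.2e-07) and by -0.39 ± 0.15 in Cre- (edgeR adjusted p = 0.0371). The Cre- call was lost without naive Cre- replicate 1 (-0.27, adjusted p = 0.179) or 3, or without any 1 of the demyelination Cre- libraries. In start-tamoxifen remyelination it had 259.5, 301.8 and 331.1 CPM in Cre+ and 275.4, 246.9 and 345.4 CPM in Cre- libraries, above every demyelination library, by 1.01 ± 0.15 in Cre+ (edgeR adjusted p = 1.64e-06) and 1.21 ± 0.15 in Cre- (edgeR adjusted p = 1.72e-07). With tamoxifen at the peak it had 398.3, 537 and 450.2 CPM in Cre+ and 293.3, 292.6 and 378.3 CPM in Cre- libraries, without overlap. That difference was 0.52 ± 0.14 (edgeR adjusted p = 0.0204), and it did not pass without peak-tamoxifen Cre- replicate 1 (0.46, adjusted p = 0.0917) or 2 (0.46, adjusted p = 0.113), or Cre+ replicate 2 (0.41, adjusted p = 0.115) or 3 (0.54, adjusted p = 0.0515). Itgav shares 634 exon bases with Gm13684 on the opposite strand, which stood at 3.992 to 13.75 CPM.

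Itgb5, the beta5 partner of alpha v in the uptake of dying cells and a gene high in resting microglia, varied widely between replicates. It had 1184, 2249 and 3099 CPM in naive Cre+ and 707.3, 263.5 and 342.2 CPM in naive Cre- libraries. The groups do not overlap, and Itgb5 was higher in Cre+ by 2.32 ± 0.48 (4.98-fold, edgeR adjusted p = 0.00175). In demyelination it had 462.1, 594.2 and 1488 CPM in Cre+ and 1506, 1167 and 558.9 CPM in Cre- libraries, and the groups overlap (-0.35 ± 0.46, edgeR adjusted p = 0.72). In Cre+ demyelination was lower than naive, by -1.36 ± 0.47 (edgeR adjusted p = 0.0213), and in Cre- higher, by 1.30 ± 0.47 (edgeR adjusted p = 0.0378). Neither state comparison passed with the replicate number as a block (-1.45 and 1.40, adjusted p = 0.0905 and 0.128). The Cre+ call was also lost without naive Cre+ replicate 3 or demyelination Cre+ replicate 1 or 2, and the Cre- call without naive Cre- replicate 2 or 3 or demyelination Cre- replicate 1 or 2. Without the libraries with low Cx3cr1 the Cre+ difference was -2.11 (edgeR adjusted p = 0.0128). In remyelination Itgb5 was high in all 12 libraries, at 2202, 2616 and 2354 CPM in start-tamoxifen Cre+ and 2130, 1929 and 2458 CPM in start-tamoxifen Cre- libraries, and at 2409, 3070 and 3391 CPM in peak-tamoxifen Cre+ and 2139, 2759 and 3206 CPM in peak-tamoxifen Cre- libraries. Genotypes overlapped in both.

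Alpha v also pairs with beta3, and alpha 5 with beta1. Neither Itgb3 nor Itga5 is among the 10, but both bind the RGD motif of matrix proteins as alpha v integrins do. Itgb3 had 335, 247 and 283.9 CPM in naive Cre+ and 87.83, 74.68 and 101.2 CPM in naive Cre- libraries, a rise of 1.72 ± 0.27 (edgeR adjusted p = 0.000165). With tamoxifen at the peak it had 258.4, 486.7 and 451.5 CPM in Cre+ and 108.7, 121.6 and 140.3 CPM in Cre- libraries, a rise of 1.69 ± 0.27 (edgeR adjusted p = 0.000591). Both pairs of groups were fully apart. In start-tamoxifen remyelination it had 126.1, 125.4 and 111.8 CPM in Cre+ and 130.4, 138.9 and 176.2 CPM in Cre- libraries, all Cre+ lower but not past the threshold (-0.29 ± 0.27, edgeR adjusted p = 0.805), and the genotype effect differed between the timings by 1.99 ± 0.38 (edgeR adjusted p = 0.00716). The demyelination values were 173.7, 66.27 and 139.2 CPM in Cre+ and 41.76, 44.35 and 47.01 CPM in Cre- libraries. The rise of 1.51 ± 0.27 (edgeR adjusted p = 0.00281) was 0.62 without the 3 libraries with low Cx3cr1 (adjusted p = 0.535) and did not pass in a fit on the 6 demyelination libraries alone (adjusted p = 0.0518). Itga5 was higher in Cre+ in naive microglia (0.74 ± 0.12, edgeR adjusted p = 6.07e-05) and with tamoxifen at the peak (0.51 ± 0.12, edgeR adjusted p = 0.0072), the peak call being lost without peak-tamoxifen Cre+ replicate 3 (0.38, adjusted p = 0.079).

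**Figure D4:**
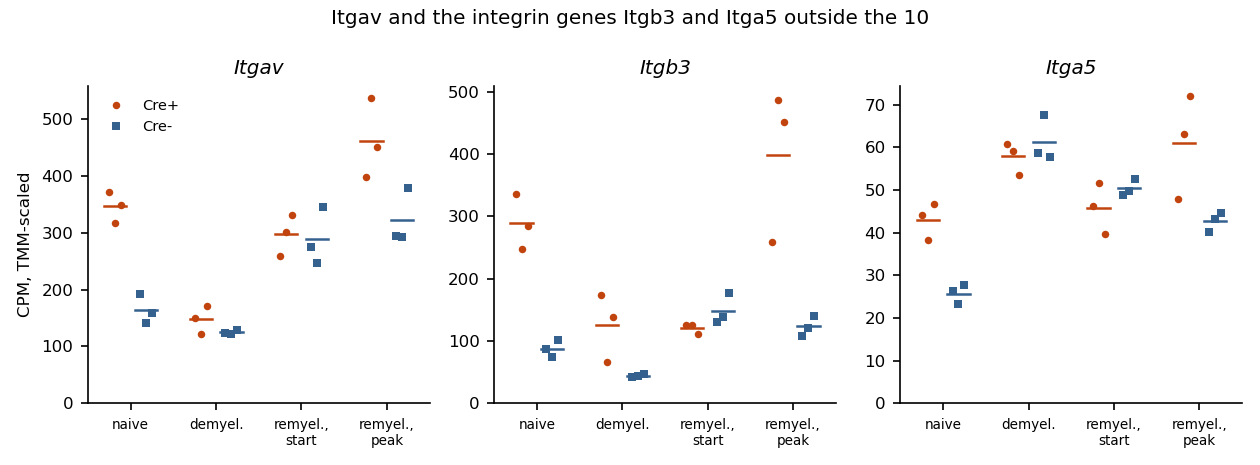
TMM-scaled CPM of Itgav, Itgb3 and Itga5 in every library (linear axes), by state, with Cre+ circles left of Cre- squares and bars at the mean of 3. Itgb3 is higher in all Cre+ than in all Cre- libraries in naive, demyelination and peak-tamoxifen remyelination, and lower in all Cre+ libraries, not past the threshold, in start-tamoxifen remyelination.

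Since Dicer1 makes miRNAs, the 3′ UTRs of the 10 genes (GENCODE M21, GRCm38) were searched for 7-base matches to the seeds of 9 miRNAs known from myeloid cells. The miRNAs whose sites lie in Itgav or Itga9, both higher in naive Cre+ microglia, are shown 5′ to 3′ as RefSeq (GRCm38.p6) gives them, with bases 2 to 8, the seed, in capitals. No pair of these 4 shares a seed.
miR-142a-3p: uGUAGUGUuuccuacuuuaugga
miR-21a-5p: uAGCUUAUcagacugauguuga
miR-125b-5p: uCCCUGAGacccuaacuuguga
miR-29a-3p: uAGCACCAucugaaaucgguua
The matching stretches follow, with the 7 bases complementary to the seed in capitals.
Itgav, miR-142a-3p, chr2:83803764-83803786, plus strand: gaacaggtacacattACACTACa
Itgav, miR-21a-5p, chr2:83803781-83803803, plus strand: actacagttgacttcATAAGCTa
Itga9, miR-125b-5p, chr9:118897615-118897637, plus strand: attgcgtggtcaaccCTCAGGGg
Itga9, miR-125b-5p, chr9:118899028-118899050, plus strand: acagtcccctcgtgcCTCAGGGt
Itga9, miR-125b-5p, chr9:118899953-118899975, plus strand: gatttgggaaagcacCTCAGGGc
Itga9, miR-29a-3p, chr9:118898317-118898339, plus strand: gctgtccccaactggTGGTGCTg
Itga9, miR-29a-3p, chr9:118900621-118900643, plus strand: cccccgggtgtggcgTGGTGCTc
The Itgav sites lie at bases 444 to 450 and 461 to 467 of a UTR of 3581 bases. Among tested genes with UTRs 0.8 to 1.25 times as long, 14% had a miR-142a-3p match and 17.6% a miR-21a-5p match. For Itga9, whose UTR has 3671 bases, 29.6% of such UTRs had a miR-125b-5p match and 32.1% a miR-29a-3p match. Of the 10 genes 6 had at least 1 match to any of the 9 miRNAs. Itga6, Itgb5 and Itgb2 were called higher in naive Cre+ microglia and had no match, while Itgam, Itgal, Itga4 and Itgb1 had matches and were not called higher. Itgax had no match. Outside the 10, Itgb3 had 3 matches to miR-125b-5p, 1 to let-7a-5p and 1 to miR-29a-3p in 3331 bases. A match is a description of the sequence, and miRNA levels were not measured here.

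Counts of calls among the 10 are set beside the share of all 17579 tested genes that were called. Between genotypes in naive microglia, 5 of the 10 were higher and 1 was lower in Cre+, against 14.7% and 13.7% of all genes. The median log2 difference of the 10 was 0.64, and that of all genes -0.01. In demyelination 1 was higher (Itgam) and 1 lower (Itga4), against 5.69% and 3.48% of all genes, and without the 3 libraries with low Cx3cr1 it was 0 of the 10. With tamoxifen at the start 0 were higher and 0 lower by edgeR, against 0.0341% and 0% of all genes. There 1 of the 10 had an unadjusted p under 0.05, and DESeq2 called 0, both without a share of all genes to set beside them. With tamoxifen at the peak 2 were higher (Itga6, Itgav) and 1 lower (Itgax), against 6.99% and 4.02%.

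**Figure D5:**
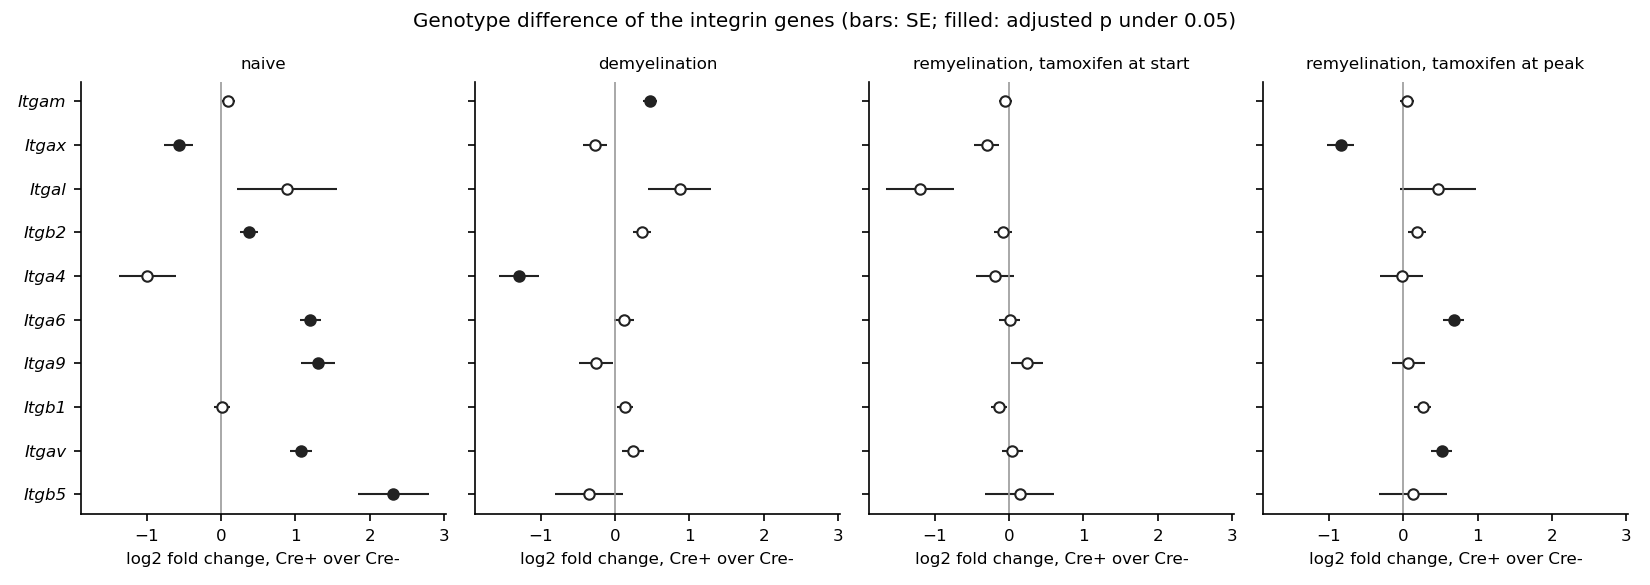
Log2 fold change of Cre+ over Cre- libraries (x axis) for the 10 integrin genes (rows) in the 4 states, with bars of 1 SE and filled points where the edgeR adjusted p was under 0.05. Filled points lie right of 0 for Itgb2, Itga6, Itga9, Itgav and Itgb5 in naive microglia, and there are none with tamoxifen at the start.

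Between states, demyelination was higher than naive for 4 of the 10 and lower for 6 in Cre+, against 26.3% and 25.9% of all genes. In Cre- it was higher for 5 and lower for 3, against 19.7% and 16.2%. Between 5 and 6 of the 10 were called in Cre- when any 1 of the 6 libraries was left out. The shares of all genes called in those fits are not given here, so nothing is drawn from that count. With all libraries, the genes higher in both genotypes were Itgax, Itgal, Itga4 and Itgb2, and those lower in both were Itgam, Itgb1 and Itgav. Start-tamoxifen remyelination was higher than demyelination for 5 and lower for 4 in Cre+, against 32.5% and 30.8% of all genes, and higher for 4 and lower for 2 in Cre-, against 26.3% and 28.3%. Itgax and Itgb2 fell in both, and Itga6, Itga9 and Itgav rose in both, with the limit on Itga6 given above. Against naive, start-tamoxifen remyelination was higher for 4 and lower for 4 in Cre+, with 28.6% and 29.2% of all genes. In Cre- it was higher for 7 and lower for 3, with 28.8% and 27.4% of all genes. Itgax, Itgal, Itga4 and Itga9 were higher in both, and Itgam, Itgb2 and Itgb1 lower in both. These state comparisons share libraries with each other, and each genotype has its own.

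Whether the genotype effect itself changed was tested as an interaction. Between demyelination and naive it changed for 5 of the 10, against 15.8% of all genes. It was more negative in demyelination for Itga6 (-1.07 ± 0.2, edgeR adjusted p = 0.000985), Itga9 (-1.58 ± 0.32, edgeR adjusted p = 0.00338), Itgav (-0.84 ± 0.2, edgeR adjusted p = 0.00716) and Itgb5 (-2.66 ± 0.66, edgeR adjusted p = 0.0118). It was more positive for Itgam (0.37 ± 0.12, edgeR adjusted p = 0.0422). The Itgb5 call was lost with the replicate block (-2.85, adjusted p = 0.0815), the Itga9 call with the block and the GC content and length correction together (-1.42, adjusted p = 0.0581), and the Itgam call with the block (0.36, adjusted p = 0.0512) and without the libraries with low Cx3cr1 (0.33, adjusted p = 0.21). The Itgam call was also lost without naive Cre- replicate 2, any 1 naive Cre+ library, demyelination Cre- replicate 1 or 2, or demyelination Cre+ replicate 1 or 3 (0.32 to 0.39, adjusted p = 0.0583 to 0.105). Between start-tamoxifen remyelination and demyelination it changed for 1 of the 10, Itgam (-0.52 ± 0.12, edgeR adjusted p = 0.0202), against 3.74% of all genes. That call was lost without start-tamoxifen Cre+ replicate 1 (-0.47, adjusted p = 0.0631) or 2 (-0.50, adjusted p = 0.0725), demyelination Cre- replicate 2 (-0.50, adjusted p = 0.0537) or Cre+ replicate 1 (-0.46, adjusted p = 0.0836), and without the libraries with low Cx3cr1 (-0.42, adjusted p = 0.356). The same change for Itga4 was 1.10 ± 0.38 and did not pass (edgeR adjusted p = 0.0973). Between the tamoxifen timings 0 of the 10 changed by edgeR, against 3.77% of all genes. Of the 10, 5 had an unadjusted p under 0.05 there, and DESeq2 called 1. The shares of all genes at that unadjusted threshold and by DESeq2 are not given here, so nothing is drawn from these counts.

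The rest of the integrin pathway was described from lists of ligands, of activators and adaptors, and of signalling kinases and partners. Of 26 ligand genes tested, 11 rose and 5 fell in demyelination in Cre+, and 11 rose and 4 fell in Cre-. The shares of all genes were 26.3% and 25.9% in Cre+ and 19.7% and 16.2% in Cre-. Spp1, which encodes osteopontin, a ligand of alpha v, alpha 4 and alpha 9 integrins, averaged 4140 CPM in demyelination Cre+ and 6.695 CPM in naive Cre+ libraries (9.28 ± 0.39, edgeR adjusted p = 1.11e-12). In Cre- it averaged 4710 CPM in demyelination and 9.887 CPM in naive libraries (8.90 ± 0.38, edgeR adjusted p = 3.99e-12). Fn1, fibronectin, averaged 398.2 CPM in demyelination Cre+ and 124.7 CPM in demyelination Cre- libraries and was higher in Cre+ (1.68 ± 0.39, edgeR adjusted p = 0.0122), a call lost without demyelination Cre- replicate 3 (adjusted p = 0.064), without Cre+ replicate 1 (adjusted p = 0.0856) and without the libraries with low Cx3cr1 (1.17, adjusted p = 0.63). Postn, the matrix protein periostin, averaged 56.66 CPM in demyelination Cre+ and 251 CPM in demyelination Cre- libraries and was lower in Cre+ (-2.15 ± 0.31, edgeR adjusted p = 0.000692), by -1.29 without the libraries with low Cx3cr1 (adjusted p = 0.00351). In naive microglia 6 of 26 ligands were higher and 5 lower in Cre+, against 14.7% and 13.7% of all genes. Among these Tgfb1, whose latent form alpha v integrins bind, was higher (0.62 ± 0.1, edgeR adjusted p = 8.98e-05), and Mfge8, the bridge between dying cells and alpha v, was lower (-1.08 ± 0.19, edgeR adjusted p = 0.000344).

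Of 33 activators and adaptors tested, 4 were higher and 5 lower in naive Cre+ microglia, near the 14.7% and 13.7% of all genes. The tetraspanin Cd81 was lower (-1.10 ± 0.1, edgeR adjusted p = 7.81e-08). In demyelination 0 were higher and 1, Tns3, was lower in Cre+ (-0.40 ± 0.09, edgeR adjusted p = 0.00436), against 5.69% and 3.48% of all genes. Against naive, 11 rose and 8 fell in Cre+, and 10 rose and 5 fell in Cre-, beside 26.3% and 25.9% of all genes in Cre+ and 19.7% and 16.2% in Cre-. Cd9, a tetraspanin that associates with integrins, rose in both (1.79 ± 0.11 in Cre+ and 1.30 ± 0.11 in Cre-, edgeR adjusted p = 5.9e-13 and 5.82e-10). All 33 signalling genes were tested, and 12 were higher and 3 lower in naive Cre+ microglia, against 14.7% and 13.7% of all genes. Src, the kinase that acts next to integrin tails, was higher (1.22 ± 0.16, edgeR adjusted p = 5.88e-06), and Tyrobp, the adaptor through which beta2 integrins signal in myeloid cells, was lower (-0.61 ± 0.12, edgeR adjusted p = 0.000312). In demyelination 2 were higher and 3 lower in Cre+, against 5.69% and 3.48%. Arhgef7, an exchange factor for Rac, was higher (1.30 ± 0.17, edgeR adjusted p = 0.000137), and Dock1, another, was lower (-0.83 ± 0.15, edgeR adjusted p = 0.0016). Without the libraries with low Cx3cr1 the demyelination differences of Tns3, Arhgef7 and Dock1 were -0.25, 0.75 and -0.48 and none was called (edgeR adjusted p = 0.718, 0.0728 and 0.463). Among the start-tamoxifen libraries 0 genes of the 3 lists were called in either direction by edgeR. Fgr, a kinase of the Src family, rose with demyelination in both genotypes (3.99 ± 0.2 in Cre+ and 3.40 ± 0.19 in Cre-, edgeR adjusted p = 1.93e-13 and 4.2e-12).

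Genes whose levels followed Itgax, Itgam and Itga4 most closely were taken by the correlation of log2 CPM over the 24 libraries, among 10535 genes. The 5 nearest to Itgax were Ifi204, Cdk18, Fam20c, Csf1 and Fabp5 (Pearson r of 0.986 to 0.988). The 5 nearest to Itgam were Brox, Reep5, Uso1, Scamp1 and Tlr3 (r of 0.846 to 0.879). The 5 nearest to Itga4 were Ms4a4a, Trps1, Dab2, Cbr2 and Itsn1 (r of 0.95 to 0.957), of which Cbr2 is on the border macrophage list. The libraries fall into states, so these values mostly follow the differences between states, and the libraries of a state share their depth range.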

How the data were processed

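RNA was counted per gene in 24 libraries of sorted mouse microglia, 3 per genotype and state. Per the submitters' processing notes, Trimmomatic 0.36, STAR 2.5.2b, featureCounts of Subread 1.5.2, DESeq2 and build GRCm38 were used. The authors deposited raw, unscaled counts. How strand and multiply matching reads were handled is not given in the sources used here. GENCODE M21 gave symbols for 49056 of 49315 gene identifiers, and 259 had none.

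With edgeR 4.0.16 in R 4.3.3, filterByExpr kept 17579 genes, TMM scaled the libraries, and 8 group means were fitted to all 24 libraries (16 residual degrees of freedom). Each of 13 contrasts was tested by the 2-sided quasi-likelihood F test, with Benjamini-Hochberg adjustment over all tested genes and a threshold of 0.05. The fit was tested on simulated data. CPM per kb is CPM divided by summed exon length.

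Alternatives were RLE scaling, no low-count filter, a correction for GC content and length (17527 genes), the replicate number as a block, DESeq2 1.42.0, a fit on the 6 libraries of a state, and leaving out each library. Leaving out the 3 libraries with low Cx3cr1 was added after the data were seen. The 10 integrin genes, the lists and the tests were chosen with earlier results of these data known. The genes named are the 10, the other tested integrin genes, up to 3 called genes with the smallest p per pathway list and comparison, and the 5 genes most correlated with each of Itgax, Itgam and Itga4, among genes with a mean log2 CPM of at least 2 (prior count 1). Replicates differed by more than counting noise and were kept as separate samples.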

Additional observations from a re-analysis of the deposited data

Results flagged for a closer look

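The genotype effect, Cre+ minus Cre-, differed between states by a test of the difference itself for 6 integrin results. Between demyelination and naive the genotype effect differed by -1.07 ± 0.2 for Itga6, -1.58 ± 0.32 for Itga9, -0.84 ± 0.2 for Itgav and -2.66 ± 0.66 for Itgb5 (log2 ± SE, edgeR adjusted p = 0.000985, 0.00338, 0.00716 and 0.0118). In each of these 4 genes the Cre+ libraries were all above the Cre- libraries in naive microglia, and the groups overlapped in demyelination. For Itgam the difference was 0.37 ± 0.12 between demyelination and naive (edgeR adjusted p = 0.0422) and -0.52 ± 0.12 between start-tamoxifen remyelination and demyelination (edgeR adjusted p = 0.0202). The genotype difference of Itgam itself was 0.1 ± 0.09 in naive, 0.47 ± 0.09 in demyelination and -0.05 ± 0.09 in start-tamoxifen libraries (edgeR adjusted p = 0.421, 0.00166 and 0.909). Both Itgam results use the same demyelination libraries. The Itgb5 call was lost with the replicate block, and the Itga9 call with the block and the GC content and length correction together. Both Itgam calls were lost when certain single libraries were left out, as given above. Without the 3 libraries with low Cx3cr1, Itga6, Itga9, Itgav and Itgb5 still passed, and the Itgam results did not (0.33 and -0.42, edgeR adjusted p = 0.21 and 0.356).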

How the results depend on the processing

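Over the 76 results on single integrin genes, 1011 alternative values were computed, of which 906 kept direction and side of the threshold, 91 lost a call, 7 gained one and 7 reversed. Counts of called integrin genes that moved by over 1.5 times were these. Without the 3 libraries with low Cx3cr1, 0 instead of 2 were called between genotypes in demyelination, where 81 genes in all were called instead of 1612. Leaving out 1 library at a time gave 5 to 6 calls for demyelination against naive in Cre- (8 with all), the count of 5 being that without demyelination Cre- replicate 2. For the change of the genotype effect between demyelination and naive, the replicate block gave 3 calls, alone or with the GC content and length correction, instead of 5. For its change between start-tamoxifen remyelination and demyelination (1 call), no low-count filter and DESeq2 each gave 2, leaving out the libraries with low Cx3cr1 gave 0, and leaving out 1 library gave 0 to 3 (0 without start-tamoxifen Cre+ replicate 1 or 2, demyelination Cre- replicate 2 or demyelination Cre+ replicate 1, and 3 without demyelination Cre+ replicate 2). For its change between the tamoxifen timings (0 calls), no low-count filter gave 2, and RLE scaling, the GC content and length correction, the same with the replicate block, and DESeq2 gave 1 each, while leaving out 1 library gave 0 to 2 (1 without start-tamoxifen Cre+ replicate 3 or peak-tamoxifen Cre+ replicate 1, and 2 without peak-tamoxifen Cre- replicate 3). The reversals concern 3 results, of which only that of Itga6 was called. Itgam between genotypes with tamoxifen at the start was -0.05 with all libraries and -0.13 to 0 when 1 was left out. Itga4 between genotypes with tamoxifen at the peak was -0.02 with all and -0.37 to 0.18 when 1 was left out (0.05, 0.09 and 0.18 where it reversed). Itga6 between start-tamoxifen remyelination and demyelination in Cre+ was 0.36, and -0.07 with the GC content and length correction, with or without the replicate block. The cause of these shifts was not tested. Apart from the first of these counts, the number of all genes called under the same alternative is not given here. Whether the integrin counts moved with it can therefore not be read from them.

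The replicate numbers gave no pairing in the labels. Same-numbered libraries correlated at r = 0.04 to 0.07 in naive, -0.02 to 0.03 in demyelination, -0.03 to 0.03 in start-tamoxifen and 0.06 to 0.28 in peak-tamoxifen libraries. In naive and peak-tamoxifen libraries the highest r of every Cre+ library was the one with its same-numbered Cre- library, a hint from the data and not from the design. With the block alone, the counts of called integrin genes in the other 12 comparisons were within 1.5 times those without it.

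With 3 libraries per group, differences of low genes such as Itgal (SE up to 0.69) are measured coarsely. Remyelination libraries are shallower (8.87 to 12.56 M counts, against 19.48 to 44.53 M in the others), and depth, state and any unlabelled batch between them cannot be told apart. Gene-level counts do not show which cells in the sorted pool held a transcript, and RNA levels are not receptor levels.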

Other observations

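Among the tested integrin genes outside the 10, all but Itga5 and Itgb3 stayed at or below 16.38 CPM (Itgae) in every library, and several were higher in start-tamoxifen remyelination than in naive libraries. Of 16 listed, 14 were tested, and against naive 8 rose and 1 fell in Cre+, while 7 rose and 0 fell in Cre-, against 28.6% of all tested genes called higher and 29.2% lower in Cre+, and 28.8% and 27.4% in Cre-. Itga8, a partner of beta1, averaged 3.318 CPM in start-tamoxifen remyelination and 0.239 CPM in naive libraries of Cre+ mice (3.77 ± 0.41, edgeR adjusted p = 2.83e-08). In Cre- mice it averaged 2.04 and 0.5969 CPM (1.76 ± 0.38, edgeR adjusted p = 0.000325). Itgb8, which with alpha v activates latent TGF-beta, averaged 5.91 CPM in start-tamoxifen remyelination and 0.7684 CPM in naive libraries of Cre+ mice (2.93 ± 0.33, edgeR adjusted p = 6.24e-08), and 7.831 and 1.408 CPM in Cre- mice (2.48 ± 0.32, edgeR adjusted p = 3.61e-07). The 5 mural cell markers summed to 77.75 to 95.78 CPM in start-tamoxifen Cre+ against 8.564 to 18.15 CPM in naive Cre+ libraries, and to 34.06 to 56.43 CPM in start-tamoxifen Cre- against 8.014 to 22.9 CPM in naive Cre- libraries. Of these 5, 5 rose in Cre+ and 4 in Cre-, and 5 of 6 endothelial markers rose in each genotype, with 0 falling in Cre+ and 1 in Cre-. The 6 endothelial markers summed to 79.2 to 134.3 CPM in start-tamoxifen Cre+ against 37.39 to 49.27 CPM in naive Cre+ libraries, and to 60.56 to 81.61 CPM in start-tamoxifen Cre- against 42.21 to 60.02 CPM in naive Cre- libraries. None of these markers was at 0, and their part in the levels of the low integrin genes was not tested.

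Itgae, the alpha E chain known from lymphocytes and dendritic cells of epithelia, fell with demyelination in both genotypes, to a mean of 3.955 CPM in demyelination Cre+ against 12.44 CPM in naive Cre+ libraries (-1.67 ± 0.24, edgeR adjusted p = 1.56e-06), and to 5.348 CPM in demyelination Cre- against 13.8 CPM in naive Cre- libraries (-1.36 ± 0.23, edgeR adjusted p = 4.22e-05). Itga5 rose with demyelination in both, by 0.43 ± 0.12 in Cre+ and 1.26 ± 0.12 in Cre- (edgeR adjusted p = 0.00366 and 7.22e-09), and these changes differed between genotypes by -0.83 ± 0.17 (edgeR adjusted p = 0.00206). Without the 3 libraries with low Cx3cr1 this difference was -0.70 and just missed the threshold (edgeR adjusted p = 0.0505).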
